A study of Homo sapiens with 6 samples.

Results

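The mitochondrial chromosome held 19 of the 6264 summits of a MACS2 peak list and 1 of the 18431 peaks of a MeTDiff list, both made from N1-methylguanosine (m1G) precipitates of PANC-1 cells. These 20 regions were chosen by position alone, as every entry of either list on that chromosome, and were given to a gene by the span that holds them. Of the 19 summits, 18 lay in 9 RNAs, namely both ribosomal RNAs (MT-RNR1 and MT-RNR2) and the mRNAs MT-ND1, MT-CO1, MT-CO2, MT-CO3, MT-ND4, MT-ND5 and MT-CYB, and 1 lay in no gene. The 9 RNAs are the ones that hold a summit, so that each of them has one is not a result. The MeTDiff peak lay in MT-RNR2.

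PANC-1 cells, a long-established line grown from a human ductal adenocarcinoma of the pancreas, were transfected with siRNA. Control cells, labelled WT, gave 1 input library and 2 m1G precipitates, and cells with a knockdown of TRMT5 (TRMT5 KD, depleted for 4 days) also gave 1 input library and 2 m1G precipitates. All 6 libraries came from polyA+ RNA that had been fragmented, and all were of batch I. Neither list has a column for a condition, a library or a replicate, so every value below stands for the whole series, carries no replicate error, and allows no comparison of TRMT5 KD with control cells. A peak list keeps no read counts, so the depth behind each value is unknown. As a check of the line by the genes that hold a MeTDiff peak, 5 of 6 markers of the line did (KRT8, KRT18, KRT19, EPCAM and VIM, but not KRT7), while 3 of 12 markers of acinar, endocrine, fibroblast and leukocyte cells did (COL1A1, COL3A1 and CD68), against 31.5% of nuclear protein-coding genes. A MACS2 summit was held by 3 of the 6 and by 2 of the 12 (COL1A1 and COL3A1), against 15.5%. COL1A1 and COL3A1 are 2 of the 3 fibroblast markers, and the other, DCN, was in neither list. These markers therefore do not set the line apart from fibroblasts.

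Human mitochondrial DNA is copied into long RNAs from both of its strands, and these are cut into rRNAs, mRNAs and tRNAs. Most boundaries between the products are tRNA genes, which the mitochondrial RNase P and the RNase Z ELAC2 cut at either end, and most of the mRNAs then receive a poly(A) tail. m1G is best known in tRNAs. TRMT5 places it beside the anticodon, in mitochondrial tRNAs too, and TRMT10C, a subunit of the mitochondrial RNase P, methylates the ninth base of many mitochondrial tRNAs. The chromosome carries 37 genes, of which 22 are tRNA genes, 2 rRNA genes and 13 mRNA genes.

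The highest score on the chromosome stood in MT-RNR2, the rRNA of the large ribosomal subunit. The score of a summit is the authors' own value, a p-value or q-value that MACS2 gives as its −log10, and a higher score means that the pile-up of precipitated fragments was less likely under the caller's background. MT-RNR2 (positions 1671 to 3229, GRCh38) held 3 summits of 1 peak, at 1936 with a score of 21.7, at 2299 with 31.0 and at 2702 with 43.0. The scores were thus highest at the summit farthest from the 5′ end, 1032 nt into an RNA of 1559 nt. That summit ranked 424 of the 6264 in the list, and 93.2% of all summits scored lower.

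MT-RNR1, the rRNA of the small subunit (648 to 1601), held 2 summits of separate peaks. One was at 745 with a score of 38.0 and the other at 1268 with 26.5. Here the higher score stood at the 5′ end, 98 nt into an RNA of 954 nt, and 90.2% of the list scored lower. All 5 rRNA summits scored above the median of the whole list, which was 16.4 (quartiles 10.2 and 25.6, range 2.01 to 126).

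The mRNAs of complex IV, the cytochrome c oxidase that passes electrons to oxygen, came next. MT-CO2 (7586 to 8269) held 1 summit at 7899, with a score of 36.5. MT-CO1 (5904 to 7445), the catalytic subunit, held 2 summits of separate peaks, with scores of 34.8 at 6311 and 16.3 at 7146. MT-CO3 (9207 to 9990) held 1 summit at 9308, with a score of 23.1. Of these 4 scores 3 lay above the list median, and the second MT-CO1 summit lay just below it.

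The mRNAs of complex I, the NADH dehydrogenase at the entry of the respiratory chain, held 7 summits, at lower scores. Of its 7 mRNAs 3 held a summit. All 7 together had 1.10 summits per kb, against 1.33 for the 3 of complex IV. MT-ND4 (10760 to 12137) held 3 summits of 1 peak, at 10801 with a score of 9.29, at 11435 with 11.8 and at 11762 with 11.1. MT-ND1 (3307 to 4262) held 2 summits of 1 peak, with scores of 10.3 at 3570 and 9.16 at 3793. MT-ND5 (12337 to 14148), the longest of the 9, held 2 summits of 1 peak, with scores of 9.32 at 12863 and 5.37 at 13415. None of these 7 summits reached the median of the list.

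MT-CYB (14747 to 15887) encodes cytochrome b, the one subunit of complex III that is made in mitochondria. Its 2 summits, of 1 peak, scored 6.85 at 14838 and 7.30 at 15297, and 10.8% and 12.5% of the list scored lower. The summit outside every gene was at 393, in the stretch without genes before the tRNA-Phe gene MT-TF, where replication and transcription start. It scored 5.37 and shared a peak with the first summit of MT-RNR1, 352 bp away on the other side of MT-TF.

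**Figure D1:**
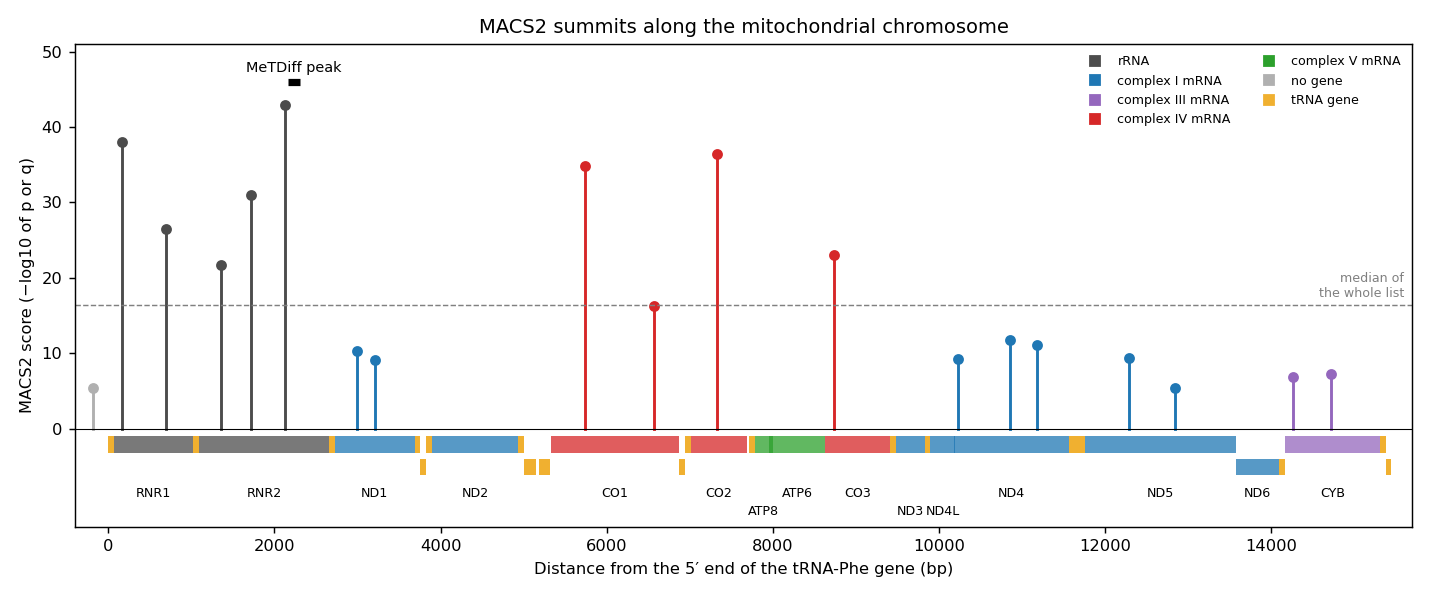
Scores of the 19 MACS2 summits (vertical axis, −log10 of p or q) against their distance in bp from the 5′ end of the tRNA-Phe gene (horizontal axis). Stems are coloured by the product of the gene that holds the summit; boxes below are genes, with those read from the opposite strand in the lower row, and the black bar is the MeTDiff peak. The rRNA and complex IV stems, from 16.3 to 43.0, all stand above those of complex I and complex III, from 5.37 to 11.8.

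Grouped by product, the scores of the rRNAs and complex IV together lay above those of complexes I and III together. The 5 rRNA summits ran from 21.7 to 43.0 with a median of 31.0, and the 4 complex IV summits from 16.3 to 36.5 with a median of 29.0. The 7 complex I summits ran from 5.37 to 11.8 with a median of 9.32, and the 2 complex III summits from 6.85 to 7.30. The rRNA and complex IV ranges overlapped each other, and the lowest of their 9 scores was above the highest of the 9 scores of complexes I and III. This grouping was made after the scores were seen and was not tested. A score rises with the number of fragments as well as with their enrichment, and how far RNA abundance moves with it was not tested.

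The order followed the position on the chromosome only in part, and the parts of position and product were not tested. MT-ND1, with scores up to 10.3, lies between MT-RNR2, with up to 43.0, and MT-CO1, with up to 34.8. MT-RNR1 and MT-RNR2 are neighbours, separated by the tRNA-Val gene, and both scored high. MT-ND4, MT-ND5 and MT-CYB are the last 3 of the 9 in the order of the genes, and none of their 7 summits passed 11.8.

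**Figure D2:**
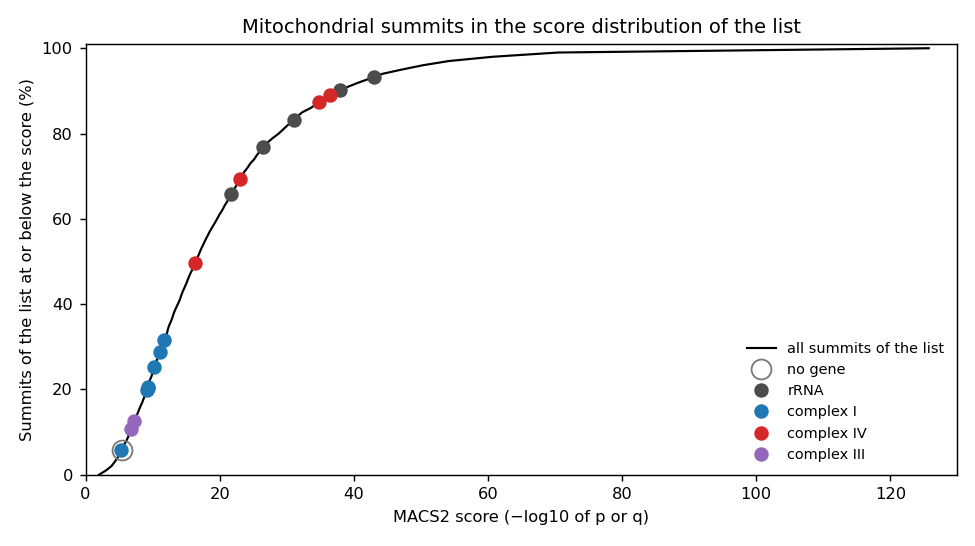
Percentage of all 6264 summits (vertical axis) at or below each MACS2 score (horizontal axis, −log10 of p or q), drawn as a line, with the mitochondrial summits as points coloured by product; the open circle is the summit in no gene, which coincides with a complex I point. Points spread from above 5.81% of the list, at 5.37, to above 93.2% of it, at 43.0.

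Over the chromosome the median score was 11.8 for 19 summits (order-statistic 95% interval 9.16 to 31.0, counting error only), against 16.4 for the list. Above the list median were 8 of the 19 (42.1%, Wilson interval 23.1 to 63.7). Above the upper quartile of the list were 6, and below the lower quartile 7. With 1 summit per peak, the best one, the median was 23.1, since the low complex I and complex III scores came in peaks with several summits. This is above the 16.4 of the list, which counts every summit, and a list median by peak was not taken.

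Of the 13 mitochondrial protein-coding genes 7 held a summit (53.8%, Wilson interval 29.1 to 76.8), and 15.5% of nuclear protein-coding genes did. The nuclear share counts all 20037 genes, expressed or not, and the part of expression in the difference was not tested. The mitochondrial genes without a summit were those of complex I subunits MT-ND2, MT-ND3, MT-ND4L and MT-ND6 and both of complex V, the ATP synthase (MT-ATP6 and MT-ATP8). MT-ND2, of 1042 nt, is the longest of them, and its span was 677 bp from the nearest summit. MT-ND4L, of 297 nt, shares an mRNA with MT-ND4, and the first MT-ND4 summit was 35 bp from it. MT-ATP6, of 681 nt, adjoins MT-CO3, whose summit was 101 bp away. MT-ND6, of 525 nt, is read from the opposite strand, and its nearest summit was 165 bp off, in MT-CYB. Summits carry no strand, so a fragment of an RNA opposite to the named gene would be counted for it.

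Among the 9 RNAs the density of summits differed less than the scores. These RNAs are the ones that hold a summit, which keeps low densities out. The mitochondrial mRNAs without a summit, such as MT-ND2 of 1042 nt, had 0 per kb. Density was highest in MT-ND4, with 2.18 summits per kb, followed by MT-RNR1 with 2.10, MT-ND1 with 2.09, MT-RNR2 with 1.92 and MT-CYB with 1.75. The complex IV mRNAs had 1.28 (MT-CO3), 1.30 (MT-CO1) and 1.46 (MT-CO2) per kb, and MT-ND5 had the lowest density of the 9, 1.10. With 1 to 3 summits in each of the 9 RNAs, their densities have no order beyond counting error. MT-ND4 and MT-ND1 were near the rRNAs in summits per length while their scores were lower.

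**Figure D3:**
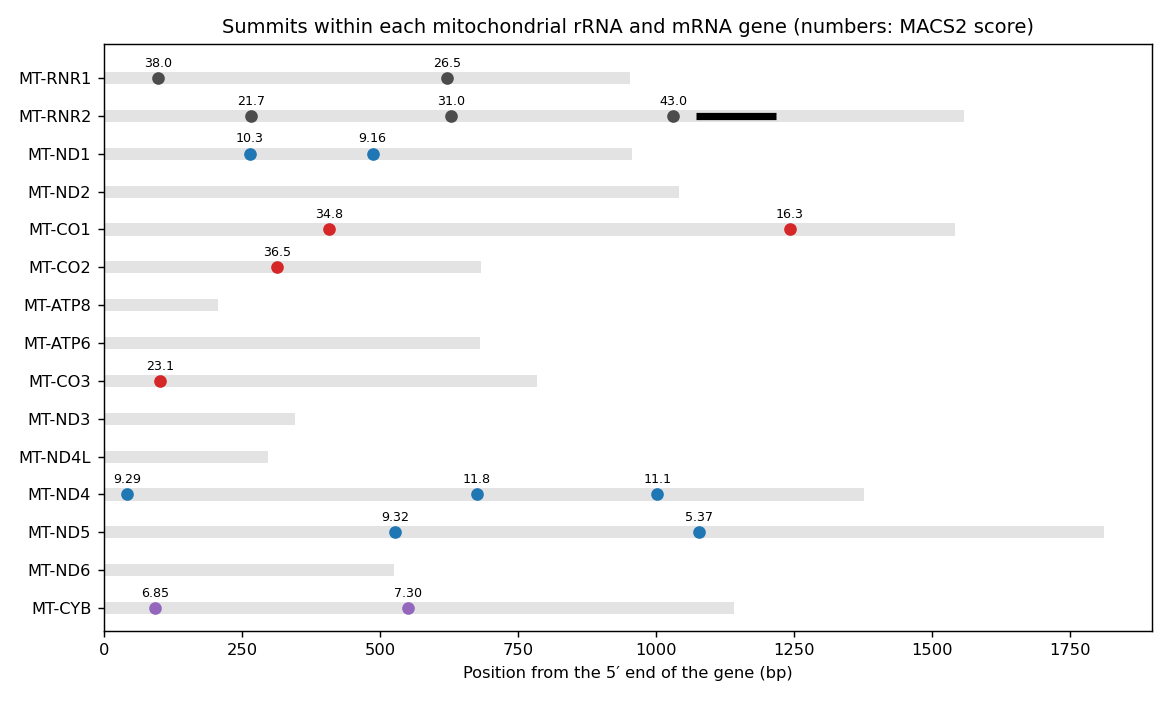
Positions of the 18 summits (points) from the 5′ end of each mitochondrial rRNA and mRNA gene (horizontal axis, bp), with gene lengths as grey bars and the MACS2 score above each point; the black bar in MT-RNR2 is the MeTDiff peak at 1072 to 1218. The 6 genes without a point hold no summit, and no point lies within 100 bp of a 3′ end.

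Few summits were near the 3′ ends of the genes. Gene spans were used here, and an RNA need not end where its span does. The span of MT-ND5, for example, ends 525 bp before the next tRNA gene, MT-TE. With each gene divided into 3 equal parts, 8 of 18 summits lay in the 5′ part, 8 in the middle part and 2 in the 3′ part (11.1%, Wilson interval 3.10 to 32.8), where an even spread would put 6 in each. This was not tested. The summits in the 3′ part were the 16.3 summit of MT-CO1, at 80.6% of its length, and the third one of MT-ND4, at 72.8%. Just before that part lay the 43.0 summit of MT-RNR2, at 66.2%, and the 26.5 summit of MT-RNR1, at 65.1%. The interval treats summits as independent, though several share a peak. With 2 equal parts the split was 12 in the 5′ part and 6 in the 3′ part. No summit was within 100 bp of a 3′ end, and 3 were within 100 bp of a 5′ end.

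These 3 were in MT-RNR1 at 98 nt, MT-CYB at 92 nt and MT-ND4 at 42 nt. MT-CO3 followed at 102 nt. For MT-ND4 and MT-CO3 the start of the reading frame is no 5′ end of an RNA that a tRNA sets. MT-ND4 lies in the shared mRNA with MT-ND4L, which begins directly after the tRNA-Arg gene, and its first summit was 332 bp from that gene. MT-CO3 begins where MT-ATP6 ends, with no tRNA gene between them, and its summit was 944 bp from the tRNA-Lys gene before it. The scores near 5′ ends did not go together, with 38.0 in MT-RNR1, 23.1 in MT-CO3, 9.29 in MT-ND4 and 6.85 in MT-CYB.

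No summit lay in a mitochondrial tRNA gene or within 50 bp of one, although each of the 9 genes adjoins a tRNA gene without a gap at one end or both. Of the 22 tRNA genes 0 held a summit, which allows a share of up to 13.6% for counting error alone. Of the 18 summits in the 9 RNAs 0 were within 50 bp, which allows up to 16.7%, and 6.54% of all positions of these RNAs are that near. The count is therefore within what the small number of summits allows. All libraries came from polyA+ RNA, and how much tRNA they held is unknown. The 0 of 22 therefore cannot tell whether mitochondrial tRNAs carry m1G.

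Within 100 bp were 2 summits, or 11.1%, against 13.5% of the positions. One was the 38.0 summit of MT-RNR1, 98 bp from the tRNA-Phe gene MT-TF. The other was the 6.85 summit of MT-CYB, 96 bp from the tRNA-Glu gene MT-TE, which is read from the opposite strand. The next nearest were 266 bp off, in MT-RNR2 beside the tRNA-Val gene MT-TV and in MT-ND1 beside MT-TL1, a gene for tRNA-Leu. Between 100 and 200 bp the 9 RNAs held no summit, while the share of positions grew from 13.5% to 27.4%.

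The median distance of the 18 summits to a tRNA gene was 398 bp (order-statistic 95% interval 300 to 555), and that of all positions in the 9 RNAs was 360 bp. The farthest summit was the 5.37 one of MT-ND5, 1079 bp from MT-TL2. The interval holds the 360 bp of the positions, and the upper quartiles were 548 bp for summits and 578 bp for positions. In the windows from 25 to 300 bp the share of summits was below that of positions, which was not tested.

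**Figure D4:**
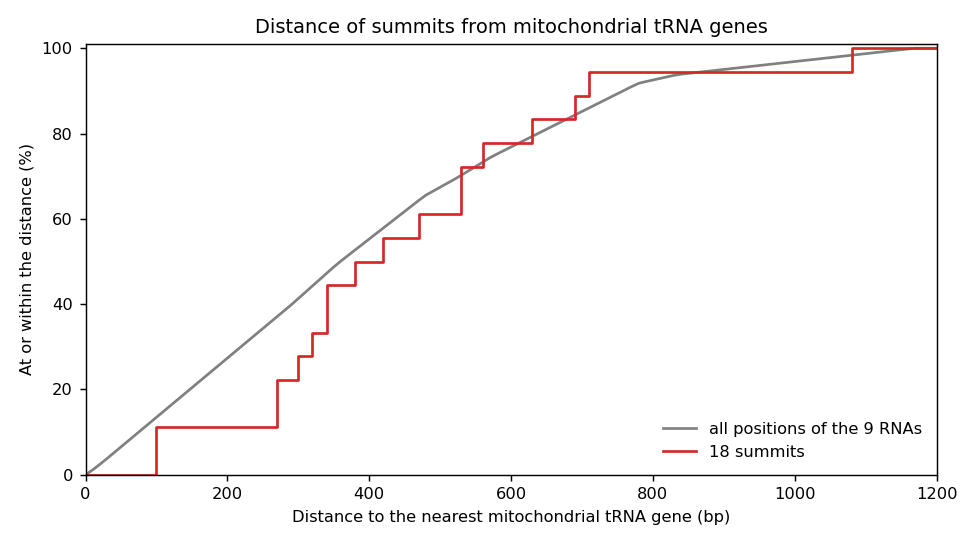
Percentage (vertical axis) of the 18 summits (red steps) and of all positions in the 9 RNAs (grey line) at or within each distance of a mitochondrial tRNA gene (horizontal axis, bp, read every 10 bp). The nearest summit is at 96 bp, so the red line starts to rise at 100 bp. It lies under the grey one at 200 bp (11.1% against 27.4%) and at 300 bp (27.8% against 41.3%), and above it at 530 bp (72.2% against 70.2%).

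Among tRNAs known as targets of TRMT5 in mitochondria are those for leucine (CUN codons), proline and glutamine. Their genes were 504 to 659 bp from the nearest summit. That is inside the range of all 22 tRNA genes, from 96 bp (MT-TE) to 732 bp (MT-TW). MT-TL2 was 504 bp from the nearest, in MT-ND4, MT-TQ was 536 bp from the second MT-ND1 summit, and MT-TP was 659 bp from the second MT-CYB summit. The cluster of 5 tRNA genes before MT-CO1 (MT-TW, MT-TA, MT-TN, MT-TC and MT-TY) was 420 to 732 bp from the first MT-CO1 summit. It lies in the longest stretch between neighbouring summits, 2518 bp from MT-ND1 to MT-CO1, which also holds MT-ND2 and 8 tRNA genes in all.

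The mitochondrial peaks often had several summits. The 19 summits came from 11 peaks, of which 6 held 2 or 3 (54.5%, Wilson interval 28.0 to 78.7), against 5.3% of all 5921 peaks in the list. Among nuclear peaks whose best score lay in the same range, 242 of 4826 did (5.01%). Peaks with 3 or more summits numbered 25 in the list, and those of MT-RNR2 and MT-ND4 were 2 of them. The difference was not tested, and the ends of the peaks are not in the list. The 6 peaks were those of MT-RNR2, MT-ND1, MT-ND4, MT-ND5 and MT-CYB, each with all of its summits in 1 gene, and the one that joins the summit at 393 to the first MT-RNR1 summit. Within these peaks, neighbouring summits were 223 to 634 bp apart, with a median of 383 bp over 8 gaps. In nuclear peaks the median was 370 bp over 335 gaps, so the median spacing was alike while peaks with several summits were more frequent on the mitochondrial chromosome. Both sets were measured in positions on the chromosome, and the part of gene structure in the difference was not tested.

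The only MeTDiff peak on the chromosome covered 147 bp of MT-RNR2, from 2742 to 2888, in 1 block on the strand of the rRNA. It is listed under ENSG00000210082. The authors' fold enrichment of precipitate over input was 3.10, with a p-value of 0.00065 and a false discovery rate (FDR) of 0.0017. The median fold of the MeTDiff list was 4.24, and 31.9% of its peaks had a lower fold. In the RNA it ran from 1072 to 1218 nt, or from 68.8% to 78.1% of the length, and it ended 342 bp before MT-TL1.

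The summit of the highest mitochondrial score, at 2702, was 40 bp from the 5′ edge of the MeTDiff peak, so both lists put their strongest or only mitochondrial entry in the same part of MT-RNR2. It was outside the peak, as were all other summits. Inside a MeTDiff peak were 0 of the 19 summits, against 35.3% of all summits. When a summit within 50 bp of a block was counted, 1 of 19 did, against 60.9% of all. The only MeTDiff peak covers 147 bp, and neighbouring summits were 223 bp or more apart. At most 1 summit could therefore lie inside it, so low shares were set in advance by the single peak. They are no separate result about the summits. The other 18 summits, with scores up to 38.0 in MT-RNR1 and 36.5 in MT-CO2, were 443 bp or more from the only MeTDiff peak. The settings of either caller on mitochondrial genes are not stated, and their part in the difference was not tested.

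Copies of mitochondrial genes in the nuclear genome can share reads with the originals. The gene table lists 487 such pseudogenes, 13 of them copies of the rRNAs, and 0 held a MACS2 summit. A MeTDiff peak lay in 1 of them, MTND4P12, one of 40 copies of MT-ND4 (chromosome 5, 134926661 to 134928036). The peak covered 99 bp (134927250 to 134927348, listed under ENSG00000247627) on the reverse strand, with a fold of 2, a p-value of 5.9e-05 and an FDR of 0.00219. Its p-value was lower than that of the MT-RNR2 peak but its FDR was higher. Read along that strand, it covered positions 689 to 787 of a copy of 1376 bp. MT-ND4 itself, of 1378 bp, held no MeTDiff peak, and its middle and highest summit lay at position 676. The sequences of the copy and the gene were not aligned here, and how reads were divided between them was not tested.

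The nuclear genes that make, cut, modify and degrade mitochondrial RNA carried peaks of their own. Of 55 such genes, 31 had a MeTDiff peak (56.4%, Wilson interval 43.3 to 68.6), against 31.5% of nuclear protein-coding genes, and 14 had a MACS2 summit (25.5%, interval 15.8 to 38.3), against 15.5%. Both lists marked 13 of them and neither marked 23. Expression levels were not used here, and their part in these shares was not tested.

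Among the named genes, REXO2, an exonuclease that degrades short RNAs in mitochondria, had the highest score of the 55, 68.1, and a largest fold of 20.5. PUS1, a pseudouridine synthase of cytosolic and mitochondrial tRNAs, had a score of 38.6 and a fold of 10.5. LRPPRC, which stabilises mitochondrial mRNAs, had 29.2 and 5.25, and POLRMT, the mitochondrial RNA polymerase, had 27.0 and 7.17. By FDR the first were TRIT1, an isopentenyl transferase of tRNAs (5.5e-09), RPUSD3, a pseudouridine synthase of mitochondrial RNA (9.1e-07), and FASTKD2, a protein of large-subunit rRNA metabolism (6.8e-06), and these 3 had no summit. Of the enzymes that cut at tRNAs, ELAC2 had a fold of 10.2 and a score of 16.3. HSD17B10, a subunit of the mitochondrial RNase P, had 4.73 and 23.9. TRMT10C and PRORP, its other subunits, were given no entry of either list. TRMT5 had a largest fold of 3.60 and a score of 8.88. ELAC2, HSD17B10, TRMT10C, PRORP and TRMT5 were picked for their role with their values known.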

How the data were processed

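Both files list peaks for all libraries together, in GRCh38 per the submitters' processing notes, which name STAR 2.7.1, MACS2 2.2.5 and other tools without roles. Pooling and settings are not stated. The deposited MACS2 value is a p-value or q-value, which of them is not stated, on the −log10 scale. The deposited MeTDiff columns were read, from their order and values, as a p-value, the log10 of the FDR and the fold enrichment ratio of the authors. The p-values and FDRs do not rank peaks alike, and the reason is unknown.

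Start positions were counted from 1. A summit went to the only span holding it in the RefSeq gene table of GRCh38.p14, and the strand of mitochondrial genes was taken from textbook knowledge. A nuclear gene held a MeTDiff ID if its span was the only one that all peaks of the ID overlapped, small RNA genes aside. All results are descriptions, without tests, made with Python 3.11.15, numpy 2.4.6 and scipy 1.17.1, and the distance measures were checked on made-up positions. Named were the 9 RNAs, the other mitochondrial mRNAs, tRNA genes nearest to a summit, up to 8 genes of the nuclear list by FDR or score, and copies with a peak, and exceptions are stated. The members and lists were chosen with earlier results of these data known. Where nothing says that libraries came from separate cultures, none is assumed.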

Additional observations from a re-analysis of the deposited data

How the results depend on the processing

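The lists hold 1 value per peak and no libraries, so precision is limited by 19 summits and depth cannot be assessed. No paired analysis was possible because neither list separates libraries or replicates. With a minimum score of 10 the chromosome held 12 summits, and with 1 summit per peak 11. With only scores above the upper quartile of the list, 4 of the 9 RNAs had a summit. A window of 100 bp or of 150 bp around tRNA genes held 2 summits, where 50 bp held 0. The 3′ part held 6 summits when genes were divided in 2 and 2 when divided in 3, and the last 100 bp held 0. Within 50 bp or 150 bp of a MeTDiff block lay 1 summit, where 0 lay inside. With only scores above the median of the MACS2 list 6 of the 55 nuclear genes had a summit, where 14 had one in the full list. The median score with 1 summit per peak rose from 11.8 to 23.1, which is within its interval. It thus passed the list median of 16.4, which counts every summit. The median score in the 9 RNAs only stayed within the interval or within 1.5 times of the value given. So did the median distance to tRNA genes with 1 summit per peak. The counts of MeTDiff peaks at an FDR of at most 0.01 and of nuclear copies with a 500 bp margin did too. The same held for the MeTDiff count of the nuclear list with folds above the median. The alternatives for tRNA distance by peak and for the share of peaks with several summits were chosen after seeing the data.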
